A study of Rattus norvegicus with 10 samples.

Results

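Chemokines are small secreted proteins that steer the migration of white blood cells, and chemokine receptors are the membrane receptors that read them. Here they were taken as all gene symbols of the deposited table that begin with a chemokine ligand or receptor stem (Ccl, Cxcl, Cx3cl, Xcl, Ccr, Cxcr, Cx3cr or Xcr) followed by digits alone. Of 19091 gene symbols 49 are described, 33 ligands and 16 receptors. Each gene stood by its brightest probe set, the one with the highest mean log2 intensity over all arrays. The muscle was the lateral gastrocnemius of the left leg, a calf muscle, from 5 aged and 5 young male Sprague Dawley rats, an outbred stock, with 1 array per animal. The aged rats entered the study at 24 months and were 28 months old at necropsy, and the young controls entered at 6 months and were 7 months old at necropsy. Both groups were fed without restriction before necropsy, and no other treatment is named. The comparison asked which transcripts differed in a rat model of sarcopenia, the loss of muscle with age.

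The names of the ligands follow the spacing of their first cysteines (CC, CXC, CX3C and XC), and the receptors, which pass through the membrane several times and couple to inhibitory G proteins, are named after the class they bind. A ligand is laid down by tissue cells, endothelium or resident macrophages and draws cells that carry its receptor out of the blood. In injured muscle the attraction of monocytes through Ccl2 and Ccr2 is the best known case, and other ligands act on eosinophils, T cells, B cells or neutrophils. Several ligands share a receptor and several receptors share a ligand, so the members are described by the receptor they meet.

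All values below are log2 intensities from a normalization between arrays made by the authors, a difference is aged minus young, and "passed" means that the moderated test of limma, with p-values adjusted over 43686 probe sets, gave an adjusted p under 0.05. Array medians lay between 3.75 and 3.81, and any 2 arrays correlated across probe sets with Pearson's r between 0.977 and 0.995. Aged replicate 1 stood apart: its mean correlation with the other aged arrays (0.9902) was close to that with the young ones (0.9895), while the other aged arrays correlated more closely with their own group (0.9908 to 0.9931) than with the young (0.9805 to 0.9844). Members whose values rest on this array are given with and without it. No detection measure came with the values, so a gene is called dim where both group means lay under 3.75, the lowest array median, and its level is then not shown to be above background. Of the 49 members 15 were dim. Just under the limit were Cxcl10, Cxcl17 and Cxcr6, with larger group means of 3.74, 3.71 and 3.51, and just over it Ccl25, Ccr2 and Cxcl6, with 3.77, 3.94 and 4.00. The muscle fibre genes had a mean log2 intensity over 10 genes of 13.09 to 13.33 in aged and 13.12 to 13.29 in young animals. Some read near the top of the scale, such as Ckm, at 14.54 to 14.59 in aged and 14.57 in young animals. Little room for a rise was left there, so a level mean does not show unchanged fibre transcripts. Ttn was less bright, at 7.18 to 8.40 in aged and 7.47 to 8.08 in young animals. Of these 10, Mb, the oxygen store myoglobin, rose and Casq1, the calcium store of the fast fibre, fell.

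RefSeq promoters, as windows of 300 bases around the start site, from position -250 on, in the rat assembly GRCr8, matched 37 of the 49 members. The windows of 5 CXC ligands are shown because these genes form 2 groups of genomic neighbours with different known inducers: Cxcl9, Cxcl10 and Cxcl11, known as interferon-induced ligands of Cxcr3, and Cxcl1 and Cxcl2, known as NF-kB-induced ligands that attract neutrophils. Capitals mark matches on either strand to the interferon-gamma site TTCNNNGAA, the interferon response site (GAAA, 2 free bases, GAAA), the NF-kB consensus and TATAAA. Overlapping NF-kB matches, as in Cxcl1 and Cxcl2, run together.
Cxcl9: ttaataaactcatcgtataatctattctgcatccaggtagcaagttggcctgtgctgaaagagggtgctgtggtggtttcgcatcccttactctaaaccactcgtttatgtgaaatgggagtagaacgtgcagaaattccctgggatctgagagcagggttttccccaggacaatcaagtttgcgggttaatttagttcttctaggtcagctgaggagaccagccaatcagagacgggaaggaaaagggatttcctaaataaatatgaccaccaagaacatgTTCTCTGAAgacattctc
Cxcl10: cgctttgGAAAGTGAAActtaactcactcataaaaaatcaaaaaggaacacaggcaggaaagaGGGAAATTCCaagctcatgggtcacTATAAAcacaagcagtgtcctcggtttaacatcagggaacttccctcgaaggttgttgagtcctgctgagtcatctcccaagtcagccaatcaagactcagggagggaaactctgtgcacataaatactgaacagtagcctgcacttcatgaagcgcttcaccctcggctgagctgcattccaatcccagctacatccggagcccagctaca
Cxcl11: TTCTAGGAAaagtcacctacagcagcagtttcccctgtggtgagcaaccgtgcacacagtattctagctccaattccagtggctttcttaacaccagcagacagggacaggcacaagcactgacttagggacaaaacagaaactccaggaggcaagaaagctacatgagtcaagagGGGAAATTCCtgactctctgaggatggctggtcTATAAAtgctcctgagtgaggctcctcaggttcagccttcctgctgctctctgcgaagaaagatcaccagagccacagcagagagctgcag
Cxcl1: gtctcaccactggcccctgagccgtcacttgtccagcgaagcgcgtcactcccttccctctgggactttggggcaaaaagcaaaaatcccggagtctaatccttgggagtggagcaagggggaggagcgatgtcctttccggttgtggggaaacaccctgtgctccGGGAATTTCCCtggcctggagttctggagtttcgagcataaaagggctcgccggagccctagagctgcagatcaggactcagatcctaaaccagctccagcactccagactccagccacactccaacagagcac
Cxcl2: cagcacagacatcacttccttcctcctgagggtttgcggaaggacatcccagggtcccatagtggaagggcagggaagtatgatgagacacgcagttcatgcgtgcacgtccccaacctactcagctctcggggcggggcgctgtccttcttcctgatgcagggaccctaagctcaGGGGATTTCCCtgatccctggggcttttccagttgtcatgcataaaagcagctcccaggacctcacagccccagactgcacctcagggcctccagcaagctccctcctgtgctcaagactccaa
The windows lie at chr14:16006916-16007215 on the plus strand (Cxcl9), chr14:15988816-15989115 on the plus strand (Cxcl10), chr14:15973478-15973777 on the plus strand (Cxcl11), chr14:17479272-17479571 on the minus strand (Cxcl1) and chr14:17467206-17467505 on the minus strand (Cxcl2), all GRCr8. Positions are counted from the start site. Cxcl10 held an interferon response match at position -243 and an NF-kB match at -187, Cxcl11 an interferon-gamma match at -250 and an NF-kB match at -74, and Cxcl9 an interferon-gamma match at 33. In Cxcl1 and Cxcl2 the NF-kB matches began at -84 and -74. Of all 33465 promoter windows, 8.87% held the interferon-gamma site, 3.92% the interferon response site, 4.18% the NF-kB consensus and 14.2% TATAAA. Among the 11 matched members that rose, 3 windows held the interferon-gamma site, 1 the interferon response site, 1 the NF-kB consensus and 6 TATAAA, and among the 25 matched members that did not pass the counts were 3, 1, 7 and 4. A match describes letters and is not a shown binding site.

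Aged muscle carried more transcript for 14 of the 49 chemokine and receptor genes and less for 1, while 34 did not pass. In all, 28.6% of members rose, where 13.8% of all 19091 genes rose, and 2.04% fell, where 8.69% of all genes fell. Ligands rose in 10 of 33 cases and receptors in 4 of 16, and the gene that fell was the receptor Cxcr7. The median log2 difference was 0.075 over the members and -0.01 over all genes. In 11 of the 49 members every aged animal lay above every young one, where 10.6% of all genes did so, and in 0 every aged animal lay below, where 6.67% of all genes did so. At a change of at least 1.5-fold 11 members rose, against 5.93% of all genes. For 6 of the 14 members that rose the young mean lay under 3.75, so their fold changes start from a level that may be background: these were Ccl2, Ccl7, Cxcl10, Cxcl13, Ccr7 and Cxcr6. In a bulk sample more cells of a type and more RNA per cell cannot be told apart. The count of members that rose was 9 without young replicate 1, 9 without young replicate 4 and 9 without young replicate 5. With an offset of 16 added to the intensities before the log it was 8, and the calls lost were those of Ccl2, Ccl7, Ccr7, Cxcl13, Cxcr4 and Cxcr6.

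**Figure D1:**
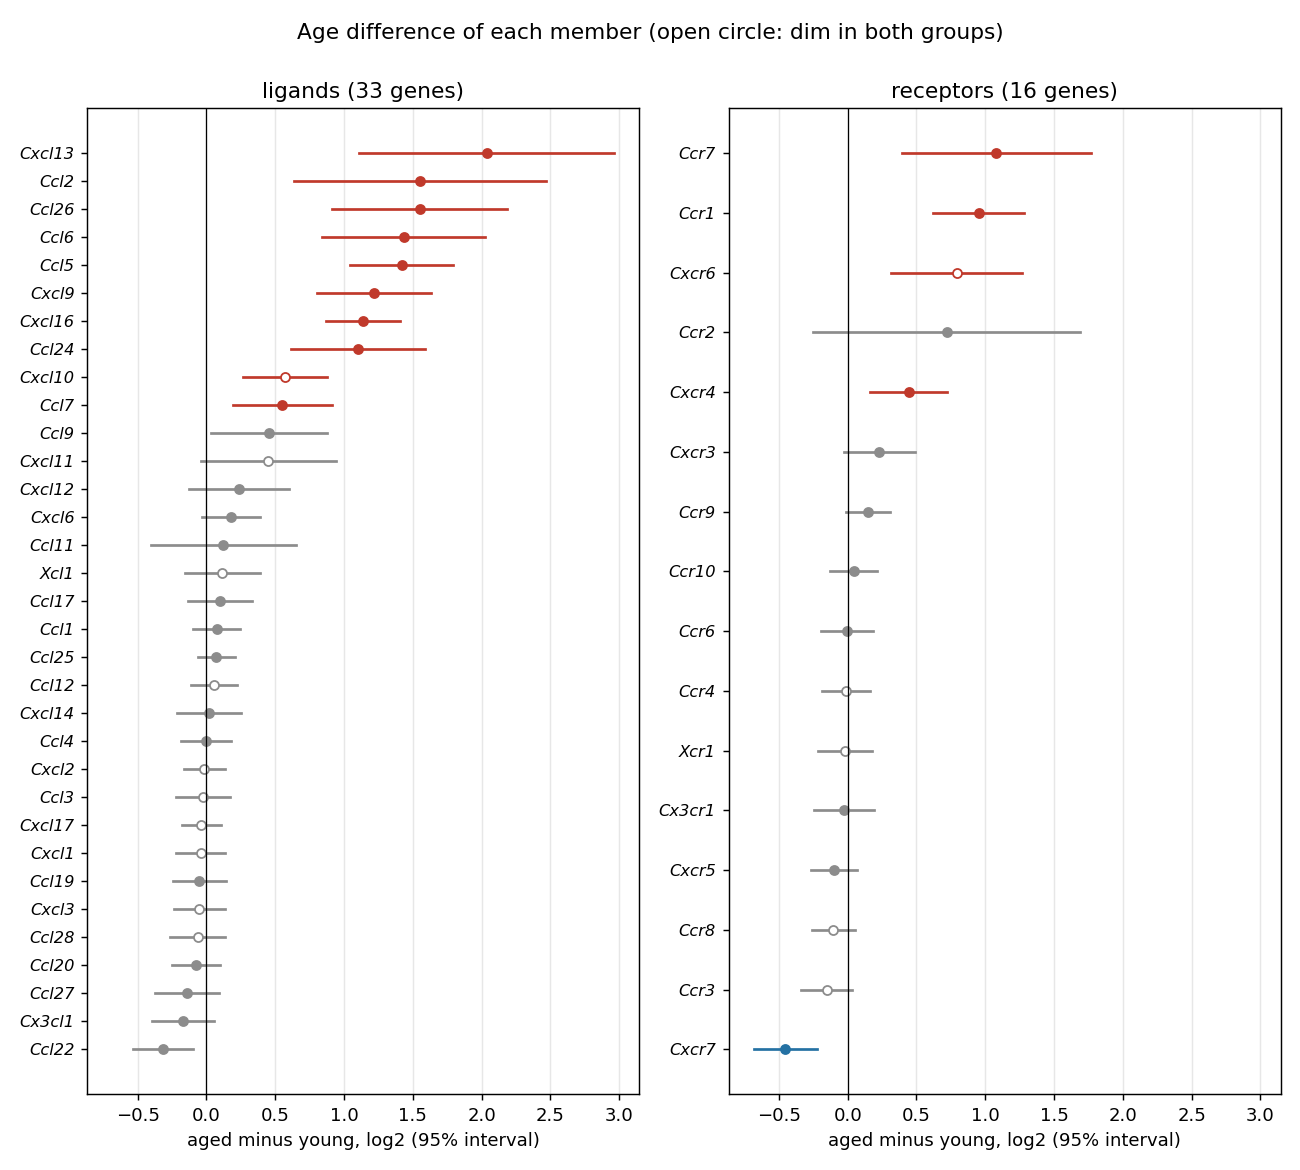
Age difference (aged minus young, log2 intensity) of each of the 49 members with its 95% interval from limma, 33 ligands on the left and 16 receptors on the right, on 5 aged and 5 young animals. Red marks the 14 genes that rose, blue the 1 that fell, grey those that did not pass, and open circles the 15 genes that were dim in both groups. The ligand Cxcl13 had the highest point, at 2.04, and the receptor Cxcr7 the lowest, at -0.45.

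Among the inflammatory CC ligands, those that meet Ccr1 rose in part. Ccl5, a ligand of Ccr1 and Ccr3 that activated T cells and macrophages release, measured 5.08, 5.61, 5.76, 6.21 and 5.21 in aged replicates 1 to 5 and 4.14, 3.97, 4.14, 4.35 and 4.18 in young replicates 1 to 5. Each aged animal lay above each young one, and Ccl5 rose 2.67-fold (log2 difference 1.42 ± 0.17 SE, adjusted p = 0.000223). Ccl6, a rodent ligand of Ccr1 made by macrophages, measured 8.68, 7.41, 7.81, 7.71 and 8.07 in aged replicates 1 to 5 and 7.03, 6.32, 7.12, 6.43 and 5.62 in young replicates 1 to 5. The groups did not overlap here either, with aged replicate 1 the highest and young replicate 5 the lowest animal, and Ccl6 rose 2.7-fold (log2 difference 1.43 ± 0.28 SE, adjusted p = 0.00348). Without aged replicate 1 the log2 difference of Ccl6 was 1.25 (adjusted p = 0.00393). Ccr1 itself, a receptor of monocytes and macrophages, measured 5.40, 4.96, 5.12, 5.03 and 5.47 in aged replicates 1 to 5 and 4.27, 4.68, 4.27, 4.28 and 3.72 in young replicates 1 to 5. It rose 1.93-fold (log2 difference 0.95 ± 0.15 SE, adjusted p = 0.00119), with no overlap between the groups.

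The Ccr1 ligands Ccl3 and Ccl9 did not pass. Ccl3, a macrophage inflammatory protein, gave a log2 difference of -0.03 (95% interval -0.22 to 0.17) and was dim, with 3.27 to 3.51 in aged and 3.21 to 3.65 in young animals. Ccl4, the related protein beside it in the genome, did not pass either. Ccl9, another rodent ligand of Ccr1 and the neighbour of Ccl6 in the genome, measured 5.15, 4.68, 4.26, 3.81 and 4.29 in aged replicates 1 to 5 and 4.15, 3.80, 4.20, 3.76 and 4.00 in young replicates 1 to 5. Its groups overlapped and it did not pass (log2 difference 0.46 ± 0.20 SE, adjusted p = 0.149). Without aged replicate 1, its highest aged value, the log2 difference was 0.28 (adjusted p = 0.253). It passed without aged replicate 4, its lowest aged value (log2 difference 0.61, adjusted p = 0.0274). It also passed with both replacement arrays (aged replicates 4 and 5) left out (0.71, adjusted p = 0.0236). In the genome Ccl5, Ccl9, Ccl6, Ccl3 and Ccl4 follow each other in this order, so members of 1 cluster differed in whether they passed.

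The monocyte ligands Ccl2 and Ccl7 rose, and their receptor Ccr2 was high in 1 aged animal. Ccl2, the main attractant of monocytes, measured 6.12, 4.75, 5.38, 4.19 and 3.90 in aged replicates 1 to 5 and 2.94, 3.67, 4.53, 2.94 and 2.48 in young replicates 1 to 5. Aged replicate 1 was the highest, and young replicate 3 lay above the lower 2 of the aged animals, so the groups overlapped. Ccl2 rose 2.93-fold (log2 difference 1.55 ± 0.42 SE, adjusted p = 0.025), and its young mean was dim. Without aged replicate 1 the log2 difference was 1.24 (adjusted p = 0.0374). The call was lost without aged replicate 3 (adjusted p = 0.0639), young replicate 1 (0.0585), young replicate 4 (0.0644) or young replicate 5 (0.0684), at log2 differences of 1.35 to 1.46. Ccl7, the next gene beside Ccl2 and a ligand of Ccr1, Ccr2 and Ccr3, measured 4.67, 3.98, 4.63, 4.00 and 3.88 in aged replicates 1 to 5 and 3.82, 3.86, 3.88, 3.52 and 3.33 in young replicates 1 to 5. The groups only just did not overlap, with aged replicate 5 and young replicate 3 nearly equal, and Ccl7 rose 1.47-fold (log2 difference 0.55 ± 0.17 SE, adjusted p = 0.0417). This call was lost without aged replicate 1 (adjusted p = 0.0738), aged replicate 3 (0.101) or any 1 of the 5 young animals (0.0502 to 0.105). Ccl12, a further ligand of Ccr2 in the same cluster, was dim and did not pass. Its neighbours Ccl11 and Ccl1 were not dim and did not pass either.

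Ccr2, the receptor that brings monocytes into tissue, measured 6.21, 3.36, 3.22, 3.33 and 3.59 in aged replicates 1 to 5 and 3.17, 3.15, 3.38, 3.32 and 3.09 in young replicates 1 to 5. A single animal, aged replicate 1, stood far above all others, whose values lay between 3.09 and 3.59. Ccr2 did not pass (log2 difference 0.72 ± 0.45 SE, adjusted p = 0.334, 95% interval -0.25 to 1.69), and without aged replicate 1 the log2 difference was 0.15 (adjusted p = 0.311).

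**Figure D2:**
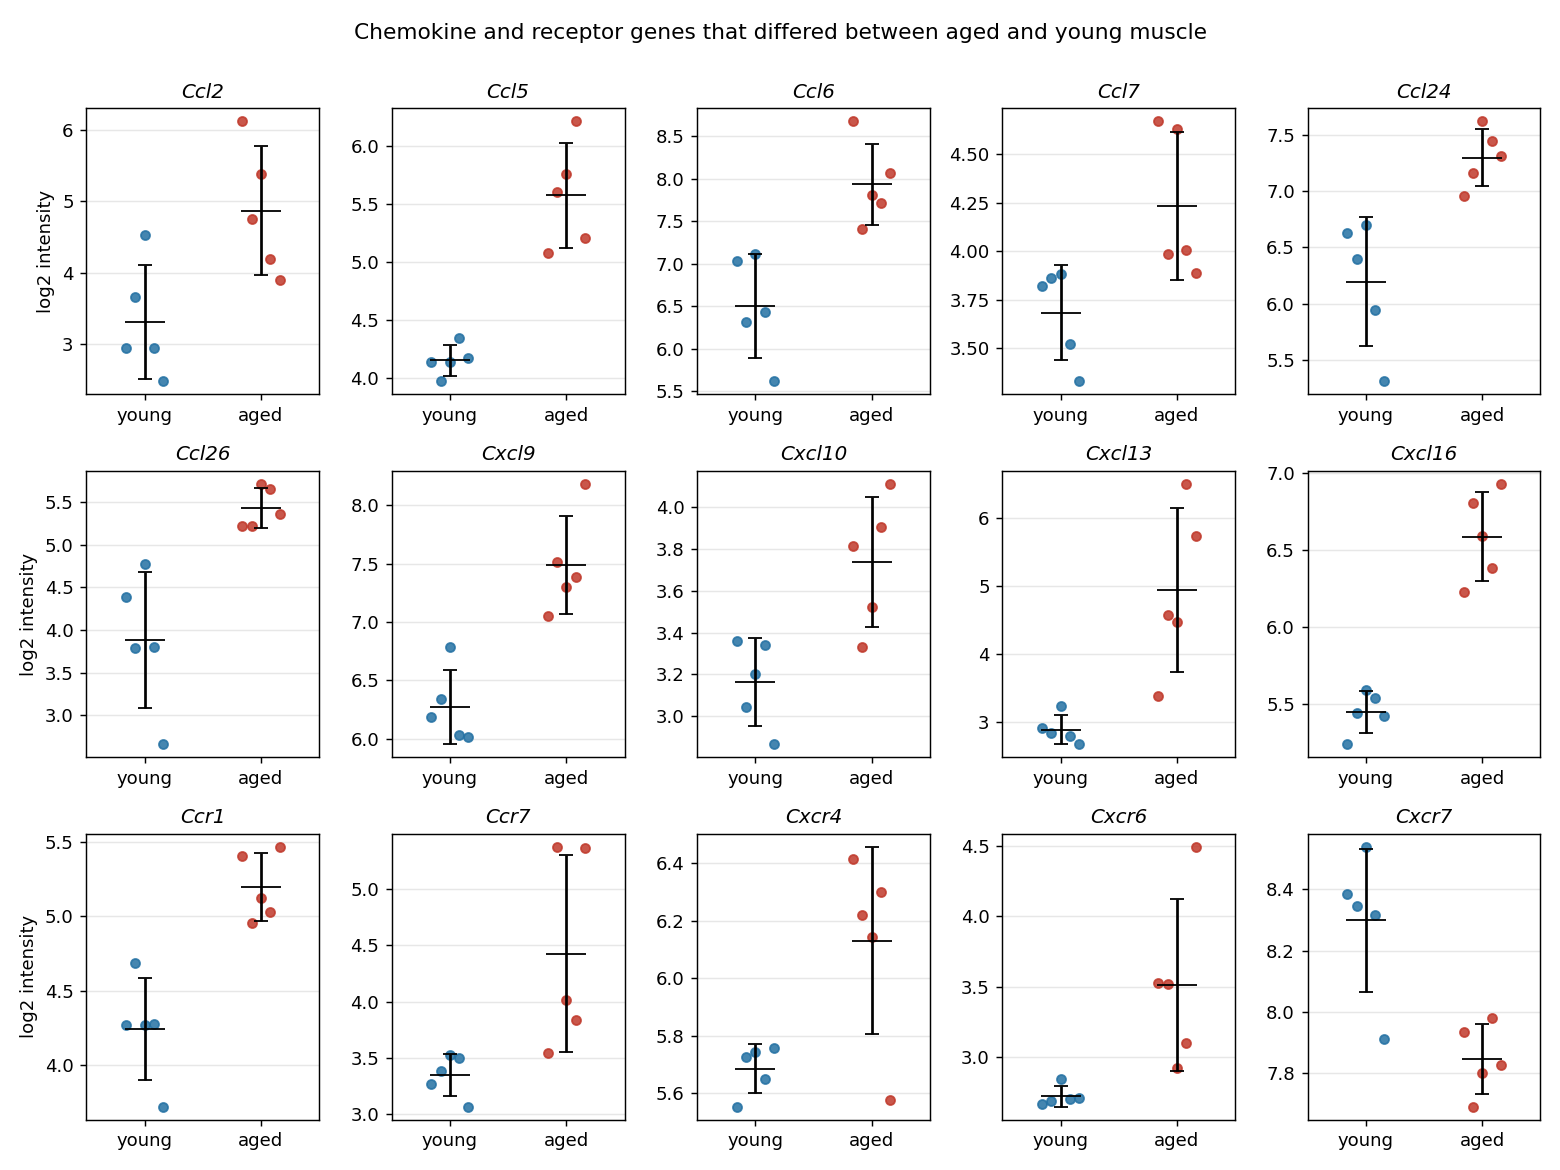
Log2 intensity of the 15 genes that passed, 1 panel per gene with its own axis, in 5 young (blue) and 5 aged (red) animals, with replicates 1 to 5 from left to right and the mean ± SD in black. Cxcl16, Ccl5 and Cxcl9 are among the genes that separate the groups. Cxcr6 holds 1 aged animal far above the rest, and Cxcr7 is the gene that is lower in aged animals.

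The eosinophil ligands Ccl24 and Ccl26 rose together, and their receptor Ccr3 was dim. Ccl24, also called eotaxin-2 in humans and made by macrophages, measured 6.96, 7.16, 7.62, 7.45 and 7.31 in aged replicates 1 to 5 and 6.62, 6.40, 6.70, 5.95 and 5.31 in young replicates 1 to 5. Every aged animal lay above every young one, and the young spread was the wider (SD 0.58 against 0.26). Ccl24 rose 2.14-fold (log2 difference 1.10 ± 0.23 SE, adjusted p = 0.00522). Ccl26, the gene next to Ccl24 and in humans the ligand eotaxin-3, measured 5.22, 5.22, 5.71, 5.65 and 5.36 in aged replicates 1 to 5 and 4.39, 3.79, 4.77, 3.80 and 2.66 in young replicates 1 to 5. Again young replicate 5 was the lowest and the groups did not overlap, and Ccl26 rose 2.93-fold (log2 difference 1.55 ± 0.30 SE, adjusted p = 0.00336). Ccr3, the receptor of both on eosinophils in humans, ran from 3.06 to 3.44 in aged and from 3.19 to 3.53 in young animals and did not pass (log2 difference -0.15 ± 0.09 SE, adjusted p = 0.28). Ccl11, the first eotaxin and another ligand of Ccr3, did not pass and had its widest spread among the aged (3.49 to 4.90).

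Of the interferon-induced CXC ligands, Cxcl9 and Cxcl10 rose and Cxcl11 did not pass. Cxcl9, an attractant of T cells and natural killer cells, measured 7.06, 7.52, 7.30, 7.38 and 8.18 in aged replicates 1 to 5 and 6.19, 6.34, 6.79, 6.03 and 6.01 in young replicates 1 to 5. Aged replicate 5 was the highest and no aged animal fell into the young range, and Cxcl9 rose 2.32-fold (log2 difference 1.22 ± 0.19 SE, adjusted p = 0.00107). Cxcl10, a second ligand of Cxcr3, was dim, with 3.81, 3.33, 3.52, 3.90 and 4.11 in aged replicates 1 to 5 and 3.36, 3.04, 3.20, 3.34 and 2.87 in young replicates 1 to 5. Aged replicate 2 lay inside the young range, and Cxcl10 rose 1.49-fold (log2 difference 0.57 ± 0.14 SE, adjusted p = 0.0148) from a level that may be background. With aged replicates 4 and 5, the highest in Cxcl10, both left out as replacement arrays, it did not pass (log2 difference 0.39, adjusted p = 0.095). Cxcl11, the third ligand, was dim as well, with 3.11, 2.94, 3.14, 2.92 and 4.38 in aged replicates 1 to 5 and 2.87, 2.91, 2.56, 3.01 and 2.88 in young replicates 1 to 5. Its high value in aged replicate 5 stood alone, and it did not pass (log2 difference 0.45 ± 0.23 SE, adjusted p = 0.223). Their shared receptor Cxcr3, carried by activated T cells and natural killer cells, measured 3.98, 3.87, 3.99, 4.36 and 4.51 in aged replicates 1 to 5 and 3.82, 3.92, 4.05, 4.02 and 3.74 in young replicates 1 to 5. Aged replicates 5 and 4 were its highest animals, the groups overlapped, and it did not pass (log2 difference 0.23 ± 0.12 SE, adjusted p = 0.235, 95% interval -0.03 to 0.49).

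Cxcl16 and its receptor Cxcr6 both rose. Cxcl16, a ligand that is anchored in the membrane of macrophages and endothelial cells and is also a scavenger receptor, measured 6.23, 6.80, 6.59, 6.38 and 6.93 in aged replicates 1 to 5 and 5.24, 5.44, 5.59, 5.54 and 5.42 in young replicates 1 to 5. It had the smallest adjusted p of the 49 members and rose 2.2-fold (log2 difference 1.14 ± 0.12 SE, adjusted p = 0.000101), and its groups did not overlap. Cxcr6, its receptor on T cells and natural killer cells, measured 3.53, 3.52, 2.92, 3.10 and 4.49 in aged replicates 1 to 5 and 2.66, 2.69, 2.85, 2.70 and 2.71 in young replicates 1 to 5. Both group means were dim, aged replicate 5 was far the highest, and Cxcr6 rose 1.73-fold (log2 difference 0.79 ± 0.22 SE, adjusted p = 0.0279). Without aged replicate 5 the log2 difference was 0.55 (adjusted p = 0.0121). Its call was lost without aged replicate 2 (adjusted p = 0.0563) or any 1 of young replicates 1, 2, 4 and 5 (0.0566 to 0.0601).

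Among the genes of lymphoid tissue, Cxcl13 and Ccr7 rose and the partners measured here, Cxcr5 and Ccl19, did not pass. Cxcl13, which draws B cells into lymphoid follicles, measured 3.39, 4.58, 4.48, 6.49 and 5.73 in aged replicates 1 to 5 and 2.92, 2.84, 3.23, 2.79 and 2.68 in young replicates 1 to 5. Aged replicate 1 was only a little above the young animals, while aged replicates 4 and 5 were the highest. Cxcl13 rose 4.11-fold (log2 difference 2.04 ± 0.43 SE, adjusted p = 0.006), from a young mean of 2.90 that was dim. Without aged replicate 1 the log2 difference was 2.42 (adjusted p = 0.000234), and without both replacement arrays, aged replicates 4 and 5, it was 1.25 (adjusted p = 0.00606). With the offset of 16 it was 1.07 and the call was lost (adjusted p = 0.053). Its receptor Cxcr5, found on B cells, ran from 4.39 to 4.70 in aged and from 4.56 to 4.76 in young animals and did not pass (log2 difference -0.10 ± 0.08 SE, adjusted p = 0.463). Ccr7, the receptor that guides dendritic cells and T cells to lymph nodes, measured 3.54, 5.38, 4.02, 3.84 and 5.36 in aged replicates 1 to 5 and 3.27, 3.38, 3.52, 3.50 and 3.07 in young replicates 1 to 5. Aged replicates 2 and 5 were high together and aged replicate 1 was just above the highest young animal, and Ccr7 rose 2.11-fold (log2 difference 1.08 ± 0.32 SE, adjusted p = 0.0363). Without aged replicate 1 the log2 difference was 1.30 (adjusted p = 0.00699). The call was lost without aged replicate 2 (adjusted p = 0.0804), aged replicate 5 (0.0806), both replacement arrays (0.0753) or any 1 of the 5 young animals (0.0591 to 0.0862). Ccl19, a ligand of Ccr7, ran from 4.36 to 4.75 in aged and from 4.50 to 4.80 in young animals and did not pass (log2 difference -0.05 ± 0.09 SE, adjusted p = 0.764). The chemokine genes Ccl21a and Ccl21b, also looked for, matched no gene symbol and have no value here.

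**Figure D3:**
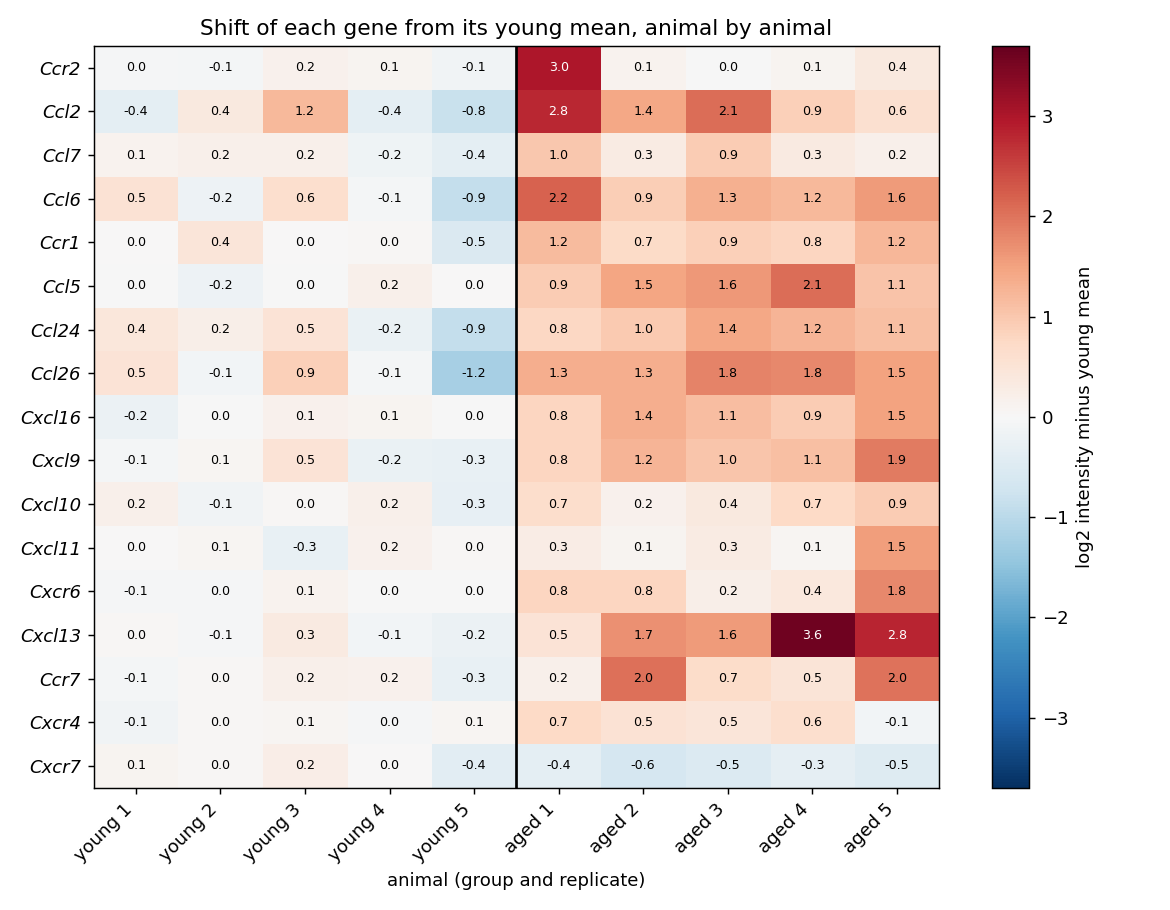
Shift of 17 genes from their young mean (log2 intensity minus the mean of the 5 young animals), with genes in rows and the 5 young and 5 aged animals in columns. Red is above and blue below the young mean. Aged replicate 1 is highest for Ccr2 and Ccl2, aged replicate 4 for Cxcl13, and aged replicate 5 for Cxcl9, Cxcl11 and Cxcr6.

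The axis of Cxcl12, the constitutive ligand of stromal and endothelial cells that holds Cxcr4-bearing cells in place, gave readings that depended on the probe set. On its brighter probe set Cxcl12 measured 8.70, 9.24, 9.06, 9.87 and 9.22 in aged replicates 1 to 5 and 9.19, 8.98, 9.02, 8.99 and 8.73 in young replicates 1 to 5. The groups overlapped and it did not pass (log2 difference 0.24 ± 0.17 SE, adjusted p = 0.395). On the dimmer one it measured 8.42, 7.996, 8.14, 8.81 and 8.14 in aged replicates 1 to 5 and 9.06, 9.26, 9.02, 8.86 and 8.95 in young replicates 1 to 5. Here every aged animal lay below every young one, and the signal fell 1.65-fold (log2 difference -0.73 ± 0.14 SE, adjusted p = 0.00301). The 2 probe sets are listed under different RefSeq transcripts of Cxcl12. Within an animal the brighter one exceeded the dimmer by 0.92 ± 0.37 (log2, SD, n = 5) in aged and by -0.05 ± 0.20 (SD, n = 5) in young animals, without overlap (exact two-sided permutation test, p = 0.0079). This test was chosen after the values were seen. A ratio within an array shows that the probe sets changed unequally and not which of them followed the gene. Cxcl14, Cxcl3 and Ccl27 also had 2 probe sets each, none of which passed.

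Cxcr4, the receptor of Cxcl12 on white blood cells and muscle precursor cells, measured 6.42, 6.22, 6.14, 6.30 and 5.58 in aged replicates 1 to 5 and 5.55, 5.73, 5.74, 5.65 and 5.76 in young replicates 1 to 5. Of the aged animals 4 lay above the young range and aged replicate 5 within it, and Cxcr4 rose 1.36-fold (log2 difference 0.45 ± 0.13 SE, adjusted p = 0.0346). Of the 14 calls this one passed under the fewest alternatives: it was lost without any 1 of aged replicates 1 to 4 (adjusted p = 0.0638 to 0.0776) or of the young animals (0.0569 to 0.0775), but without aged replicate 5 the log2 difference was 0.58 (adjusted p = 0.000815). Cxcr7, today named Ackr3, is an atypical receptor that takes up Cxcl12 without G protein signalling. It measured 7.93, 7.69, 7.80, 7.98 and 7.83 in aged replicates 1 to 5 and 8.39, 8.35, 8.54, 8.31 and 7.91 in young replicates 1 to 5. Apart from young replicate 5 every young animal lay above every aged one, and Cxcr7 fell 1.37-fold (log2 difference -0.45 ± 0.11 SE, adjusted p = 0.0111).

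**Figure D4:**
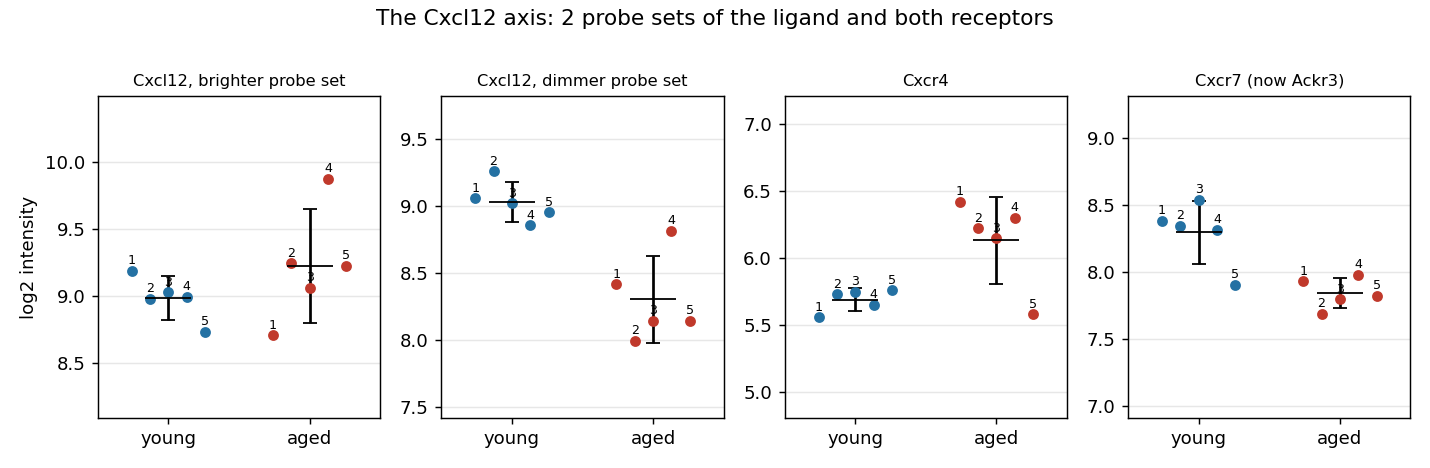
Log2 intensity of the 2 Cxcl12 probe sets and of the receptors Cxcr4 and Cxcr7 in 5 young (blue) and 5 aged (red) animals, labelled by replicate, with the mean ± SD in black; every panel spans the same log2 distance. The dimmer Cxcl12 probe set lies lower in all 5 aged animals, the brighter one overlaps, Cxcr4 is higher in 4 of 5 aged animals and Cxcr7 is lower.

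The remaining members did not pass. The ligands of neutrophils were all at low levels: Cxcl1, Cxcl2 and Cxcl3 were dim, and Cxcl6 stood just above the limit. Ccl22, a ligand of Ccr4 from macrophages and dendritic cells, came nearest to the threshold on the lower side, with 6.00, 5.56, 5.71, 5.86 and 5.70 in aged replicates 1 to 5 and 6.09, 5.95, 5.95, 6.05 and 6.38 in young replicates 1 to 5. Its log2 difference of -0.31 ± 0.10 SE missed it (adjusted p = 0.0544), and it passed without aged replicate 1 (-0.37, adjusted p = 0.0195). Of its neighbours, Ccl17, the other ligand of Ccr4, and Cx3cl1, the membrane-bound ligand of Cx3cr1, did not pass. Nor did the monocyte receptor Cx3cr1, the bright ligand Cxcl14, the skin and gut ligands Ccl20, Ccl25, Ccl27, Ccl28 and Cxcl17, the ligand Ccl1 or the receptors Ccr4, Ccr6, Ccr8, Ccr9 and Ccr10. Of these Ccl28, Cxcl17, Ccr4 and Ccr8 were dim. The pair of Xcl1, from T cells and natural killer cells, and Xcr1, its receptor on dendritic cells, was dim on both sides. The receptors Cxcr1 and Cxcr2 of the neutrophil ligands were not analysed here.

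The spread between aged animals exceeded that between young ones in 31 of 49 members, where it did so in 63.0% of all genes. Among the 14 that rose it did so in 10, and Ccl6, Ccl24, Ccl26 and Ccr1 spread more widely among the young. Which aged animal was highest or lowest differed between these genes. Of the 14 genes, aged replicate 1 had the highest aged value in 4 and the lowest in 7, and aged replicate 5 the highest in 5 and the lowest in 3. The mean shift of the 14 genes from the young mean was 1.04 in aged replicate 1, 1.07 in aged replicate 2, 1.11 in aged replicate 3, 1.153 in aged replicate 4 and 1.29 in aged replicate 5. The 14 genes were picked because they rose in these same arrays, so positive shifts follow in large part from that choice. Young replicate 5 had the lowest young value in 10 of the 14. The highest and lowest animals were not counted over all genes.

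Markers of white blood cells rose in part. Of the macrophage markers 58.3% rose, of the T cell markers 8.33% and of the natural killer cell markers 28.6%, where 13.8% of all genes rose. Of 12 macrophage markers 7 rose, 0 fell and 0 were dim, among them Lyz2, which encodes lysozyme, 3.68-fold (log2 difference 1.88 ± 0.36, adjusted p = 0.00375), the growth factor receptor Csf1r 1.87-fold, the surface receptor Adgre1 1.77-fold and the complement gene C1qa 2.28-fold. Cd163, Itgam, Cd14, Mrc1 and Aif1 of that list did not pass, at log2 differences of -0.002, 0.21, 0.30, 0.47 and 0.70. The mean log2 intensity of the 12 markers was 7.103 to 8.003 in aged and 6.06 to 7.05 in young animals, highest in aged replicate 1 and lowest in young replicate 5. For Lyz2 the first aged array read 12.87 while the remaining 4 read 10.75 to 10.89. Leaving that array out, Lyz2 rose 2.77-fold (log2 difference 1.47) and 8 of the 12 markers rose, the added one being Aif1, in a setting chosen after seeing the data. Of 12 T cell markers 1 rose, the costimulatory receptor Cd28 (log2 difference 2.19 ± 0.35, adjusted p = 0.00106), from a young mean of 2.97 that was under the dim limit, while the receptor chains Cd3g (log2 difference 0.35 ± 0.22, adjusted p = 0.338) and Cd3e (log2 difference 0.25 ± 0.21, adjusted p = 0.481) did not pass and Cd3d, Lck and Il7r were dim. Cd8a, Cd5, Cd2, Cd247, Cd4 and Cd8b did not pass either, at log2 differences of 0.025, 0.028, 0.041, 0.066, 0.101 and 0.137. Nor did the dim Cd3d, Lck and Il7r. The mean of the T cell list was 4.08 to 4.80 in aged and 3.95 to 4.12 in young animals, highest in aged replicate 5. Of 7 natural killer cell markers Prf1 and Klrd1 rose and 3 were dim, Klrd1 among them, with a list mean of 3.52 to 3.83 in aged and 3.35 to 3.40 in young animals, again highest in aged replicate 5. Gzmb, Klrk1 and Nkg7 of that list did not pass, at log2 differences of -0.062, 0.122 and 0.437. Nor did the dim Ncr1 and Cd244. The part of these cells in the changes of the chemokine genes was not tested.

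The lists of other cells gave the following. Of 8 B cell markers 0 rose, Blk fell, and Ms4a1, Cd79a, Cd79b, Cd22 and Pax5 were dim, with a list mean of 3.75 to 3.88 in aged and 3.79 to 3.89 in young animals. Of 5 plasma cell markers 0 passed, with means of 5.20 to 5.39 and 5.28 to 5.40. Of 8 neutrophil markers S100a8 alone rose and 6, S100a8 included, were dim, with 3.48 to 3.62 in aged and 3.36 to 3.48 in young animals. Of 7 dendritic cell genes 2 rose (28.6%, where 13.8% of all genes rose), namely Cd74, which B cells and macrophages also express, and Cd83, with list means of 4.87 to 5.21 against 4.54 to 4.86. Clec9a, Zbtb46, Flt3, Itgax and Batf3 of that list did not pass, at log2 differences of -0.19, -0.17, -0.02, 0.07 and 0.12. Without aged replicate 1 the log2 difference of Cd74 was 1.16 in place of 1.505, and Cd83 did not pass. Of 6 mast cell markers the proteases Cpa3 and Cma1 rose (33.3%), with list means of 4.85 to 5.07 against 4.42 to 4.86, and Tpsab1, Kit, Hdc and Fcer1a did not pass, at log2 differences of -0.12, -0.07, 0.02 and 0.14. Of 8 endothelial markers 0 passed (6.44 to 7.28 against 6.77 to 7.03), and of 4 red cell and platelet markers 0 passed (5.48 to 7.12 against 5.86 to 6.30). Of 7 fibroblast genes Dpt and Col3a1 rose and Col1a2 fell (9.34 to 9.87 against 9.05 to 9.51), and Col3a1 did not pass without aged replicate 1.

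Of 57 measured genes related to the members, 10 rose and 3 fell, 17.5% and 5.26%, shares near the 13.8% and 8.69% of all genes. These 57 include 4 chemokines and chemokine-like ligands whose symbols fall outside the rule for members, so they are in none of the members' counts. Among them Pf4, the platelet factor, rose 1.65-fold (log2 difference 0.72 ± 0.15, adjusted p = 0.00546). The atypical receptors Ackr2, Ackr4 and Ccrl2, which take up or hold ligands without signalling, did not pass. Of 30 genes of receptor signalling 6 rose and 3 fell. Rhoa, the switch of the contracting rear of a moving cell, rose 1.77-fold, Gnai2, the inhibitory G protein subunit of chemokine receptors, 1.45-fold (log2 difference 0.54 ± 0.07, adjusted p = 0.000452), Gnb2, a partner subunit, 1.35-fold and Arrb2, an arrestin that ends receptor signals, 1.46-fold. Muscle fibres express several of these genes too. Those that fell, named after their values were seen, were the kinases Grk2 (log2 difference -0.62 ± 0.12, adjusted p = 0.00486) and Pik3cd and the dim arrestin Arrb1. Of 5 proteases that trim or shed chemokines 0 passed. Among 15 inducing cytokines and receptors Ifngr2, a chain of the interferon-gamma receptor, rose 1.81-fold (log2 difference 0.86 ± 0.14, adjusted p = 0.00151), the adaptor Myd88 1.48-fold and the TNF receptor Tnfrsf1a 1.53-fold, while the cytokines Ifng, Tnf, Il6 and Lta were dim. The cytokines Il1b and Ltb were not dim and did not pass. Ltb ran from 5.72 to 7.35 in aged and from 4.35 to 9.32 in young animals (log2 difference -1.18, adjusted p = 0.335).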

How the data were processed

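Total RNA of 5 aged and 5 young gastrocnemius muscles was labelled with biotin and hybridised to 1-colour arrays, per the labels' protocols. The authors deposited probe set intensities on a linear scale (3.16 to 25989), and the submitters' processing notes name RMA without a version. RMA evens out the distributions of the arrays and compresses differences near background. Array design, probe sequences and genome build are not given in the sources used here. The table with gene symbols held 43686 probe sets, and its columns, named by age group, were used for tests. The value table held 43685 of them, and all 10 columns of the first table equalled a column of it, so it gave values per replicate. The names of 2 aged columns contain the word replacement, unexplained in the sources used here.

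Log2 intensity, without filter or pseudocount, was fitted with limma (version 3.58.1, R 4.3.3; lmFit, eBayes, two-sided) with age group as the only term. P-values were adjusted across the 43686 probe sets (Benjamini-Hochberg) and read at 0.05. The fit was tested on simulated data. The rule for named genes gave every animal's value for members that passed and values for their ligands or receptors, other members by name, and up to 4 genes per further list, those with the smallest adjusted p. Beyond this rule, every animal's value was given for Ccl22, and some lists name more than 4 genes or genes with a larger adjusted p. Old symbols in those lists were matched through RefSeq synonyms (GRCr8). Lists of 64 related genes and 12 cell type lists were used. One gene that meets the rule for members is not reported here and is in none of the members' counts. Members and lists were chosen with earlier results of these data known. Animals are separate, and 5 arrays per group limit the precision. Alternatives were quantile normalization, median centring, a filter that drops the dimmer probe sets, an offset of 16, the mean over probe sets, a trended robust fit, array weights, leaving out arrays and a replicate block. Same-numbered animals did not deviate together (r -0.117 to 0.027), so there was no sign that the numbers pair the animals, though this cannot exclude a pairing.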

Additional observations from a re-analysis of the deposited data

Results flagged for a closer look

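In 6 of 98 groups of 5 animals 1 animal lay farther from its group than Dixon's limit for 5 values allows, and chance alone flags about 1 in 20 groups. Aged replicate 1 stood out for Ccr2 at 6.21, against 3.22 to 3.59 in the other aged animals. It was also the lowest aged animal for Ccr9 at 4.22, against 4.29 to 4.31. Aged replicate 5 stood out for Cxcl11 at 4.38, against 2.91 to 3.14, and aged replicate 3 was low for Ccr8 at 2.68, against 2.89 to 2.96. Among the young animals, young replicate 4 was low for Ccr9 at 3.89, against 4.16 to 4.25, and young replicate 3 high for Cxcr6 at 2.85, against 2.66 to 2.71. Ccr8, Cxcl11 and Cxcr6 were dim.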

How the results depend on the processing

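Of the 14 members that rose, 13 passed with quantile normalization, 14 with median centring, 12 with the dimmer probe sets filtered out (32 members tested), 14 with the mean over probe sets, 11 with a trended and robust variance, 14 with array weights and 13 with the replicate number as a block, all of them among the 14. With the offset of 16, 8 passed. Leaving out 1 array gave 9 to 14, the lowest without young replicate 1, 4 or 5, where 9 of the 14 stayed. The highest count, 14 without aged replicate 4, held 13 of the 14 and Ccl9. Leaving out the replacement arrays gave 13, of which 12 were among the 14. Ccl5, Ccl6, Ccl24, Ccl26, Ccr1, Cxcl9, Cxcl16 and Cxcr7 passed under all 19 alternatives. The count of members that fell was 2 with quantile normalization, with that filter, with the mean over probe sets, with array weights and with the dimmer probe set of members that have several, a setting chosen after seeing the data, and 1 to 2 without single arrays. The added gene was Ccl22 except with the dimmer probe set, where it was Cxcl12. Ccl2 (adjusted p = 0.0924), Ccr7 (0.105) and Cxcr6 (0.0676) missed the threshold with the trended variance, and Cxcr4 with quantile normalization (0.0717). Under the replicate block, which rests on numbers not shown to pair the animals, Cxcr4 alone was lost (0.0618). Related genes that rose numbered 9 to 12 under all alternatives. Those that fell numbered 1 without the replacement arrays, 2 to 4 without single arrays and 2 to 3 otherwise. Scaling moved the median of all probe sets by at most 0.03.

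Of the members that did not pass, 10 were recomputed. Among these the sign turned in Cxcl12 with the mean over its probe sets (log2 difference -0.244) and in Ccl3 with quantile normalization (0.006), median centring (0.003) or without single arrays (-0.076 to 0.035). The cause of these changes was not tested. Without a detection measure, dim members have no lower bound on their level.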
